A study of Mus musculus with 7 samples.

Results

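The 29 genes described here build, sense and move cholesterol. They were chosen by name: every gene of the deposited count table whose Ensembl identifier maps to a symbol of the list was taken, which gave 29 of 52636 genes, and all 29 passed the filter on low counts that left 16248 genes for testing. They fall into 7 enzymes of the mevalonate steps, 12 enzymes of the sterol steps, 5 sterol sensors and regulators, and 5 genes of sterol transport and storage. The samples were inner cell masses (ICMs) of mouse blastocysts in which the kinase cRAF, which acts upstream of ERK, can be switched on by 4-hydroxytamoxifen, called tamoxifen here. All animals had the genotype Sox2Cre;CRAFR26, with a Cre recombinase driven by Sox2, and the construct reached the mice through targeted stem cells, of which the labels name 2 clones, clone 4 and clone 8. All embryos were flushed at embryonic day 2.5 and kept for 24 h in KSOM medium that held the FGF receptor inhibitor PD173074 at 250 nM, so the controls carried the inhibitor too. The vehicle group (3 libraries, clone4_1, clone4_2 and clone8_1) had ethanol for 4 h, and the tamoxifen group (4 libraries, clone4_1, clone4_2, clone8_1 and clone8_2) had 250 nM tamoxifen for 4 h. The titles of the vehicle libraries read 0 h, but their treatment field reads ethanol for 4 h, which was followed here. The submitters dropped 1 more vehicle sample at quality control. Immunosurgery stripped off the outer blastocyst layer. A library represents 10 pooled ICMs, 2 ng of whose RNA went into a low-input kit.

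No group used here had the drug without the construct, so the effect of tamoxifen itself and that of induced ERK cannot be told apart in this comparison. The labels name clones but do not say which pools shared parents or a day of collection, and a p-value here measures the spread between these pools. In such bulk samples, fewer cells of a type and less RNA per cell cannot be told apart.

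Total counts ranged from 22981498 to 42294719 per library. The pools are labelled epiblast. The list of 10 naive epiblast markers summed to 1665 to 2044 CPM (a normalised read count, scaled by library size and TMM factor) in the vehicle libraries and to 1708 to 2198 in the tamoxifen libraries, over the 9 markers that passed the filter. The list of 10 trophectoderm markers, genes of the layer that surgery removes, summed to 8530 to 11228 CPM and to 6546 to 9534 CPM. No marker of either list was at 0 in all libraries of a group. Vehicle clone8_1 and tamoxifen clone8_1 stood apart from the rest, with mean correlations to the other libraries of 0.929 and 0.931 against 0.944 to 0.955. Vehicle clone8_1 was also low in short transcripts, with a median deviation of -1.09 (log2) over the 2538 genes with a principal transcript under 1000 nt, and 0 of the 29 sterol genes are that short. Of 10 ERK feedback genes, 7 had higher and 3 lower estimates with tamoxifen, against 48.3% lower over all genes tested. Of these 10, 1 was higher with an unadjusted p under 0.05, Spry2, against 2.69% of genes tested. Its groups did not overlap, and 3.71% of genes tested were higher without overlap. Spry2 measured 82.5, 66.5 and 45.4 CPM in the vehicle libraries and 109, 129, 123 and 109 CPM in the tamoxifen libraries.

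Animal cells make cholesterol from acetyl-CoA. The mevalonate steps join acetyl units and convert them into isoprenoid phosphates, and the sterol steps condense these to squalene, close the rings and then trim and shift bonds until cholesterol is reached. SREBP2, the product of Srebf2, is the main transcription factor of these enzymes. It is held in the endoplasmic reticulum with its escort SCAP by the INSIG proteins when sterols are plentiful, and it is released, cut and sent to the nucleus when they are scarce. Promoters of its targets typically carry sterol regulatory elements beside CCAAT boxes, which bind NF-Y, and GC boxes, which bind Sp1. Tamoxifen compounds are known to bind EBP, the sterol isomerase.

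Promoter sequence was matched for 24 of the 29 genes in RefSeq's table for GRCm38.p6, which gives 250 bases before and 50 after each start. A set of 4 motifs was searched on both strands. CCAAT was found in 21 of the 24 (87.5%), against 41.1% of all 27025 genes with a window and 43.0% of the 11005 genes with a window that were tested. The GC box GGGCGG was found in 23 of the 24 (95.8%), against 38.2% of all genes and 65.7% of those tested. The sterol element TCACNCCAC was found in 1 gene of the 24, Hmgcs1, starting at base -137, against 1.44% of all genes, and the E-box TCACGTGA in 0, against 1.12%. A match is a run of letters and not a shown site of binding. The 150 bases before the start are printed for 4 of the 7 enzymes whose counts differed by 2-fold or more between the vehicle libraries of clone 4 (Mvk, Mvd, Lss and Nsdhl), and for Hmgcs1 and Ebp, whose counts did not. Each sequence is from GRCm38.p6 and reads 5′ to 3′ on the strand of the gene, and capitals mark CCAAT or its reverse complement ATTGG and, in Hmgcs1, the sterol element.
Mvk, chr5:114444119-114444268, plus strand: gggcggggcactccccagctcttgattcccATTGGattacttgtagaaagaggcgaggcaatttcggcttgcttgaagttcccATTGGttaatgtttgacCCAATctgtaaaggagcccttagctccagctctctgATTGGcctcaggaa
Mvd, chr8:122443423-122443572, minus strand: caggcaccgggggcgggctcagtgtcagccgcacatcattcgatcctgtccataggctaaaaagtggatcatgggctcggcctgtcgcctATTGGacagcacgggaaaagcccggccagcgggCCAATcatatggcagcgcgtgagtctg
Lss, chr10:76531455-76531604, plus strand: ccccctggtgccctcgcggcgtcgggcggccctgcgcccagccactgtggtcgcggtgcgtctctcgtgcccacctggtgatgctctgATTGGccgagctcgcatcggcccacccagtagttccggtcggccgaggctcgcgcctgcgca
Nsdhl, chrX:72918371-72918520, plus strand: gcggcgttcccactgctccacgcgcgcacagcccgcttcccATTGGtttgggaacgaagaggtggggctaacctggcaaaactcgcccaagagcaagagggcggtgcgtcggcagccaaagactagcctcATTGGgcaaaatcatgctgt
Hmgcs1, chr13:119690201-119690350, plus strand: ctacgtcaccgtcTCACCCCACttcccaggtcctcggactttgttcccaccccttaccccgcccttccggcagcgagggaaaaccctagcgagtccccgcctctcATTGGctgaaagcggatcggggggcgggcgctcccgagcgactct
Ebp, chrX:8193513-8193662, minus strand: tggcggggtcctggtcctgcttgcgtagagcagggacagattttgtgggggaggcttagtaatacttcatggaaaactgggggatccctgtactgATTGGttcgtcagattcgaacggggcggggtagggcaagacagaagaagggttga
All 6 promoters carry at least 1 CCAAT box in these 150 bases, those of Hmgcs1 and Ebp included. They were picked from the 24 genes with a window, of which 21 carry CCAAT.

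Of the 29 genes, 0 differed between tamoxifen and vehicle at an adjusted p under 0.05 in edgeR (quasi-likelihood test, Benjamini-Hochberg over all 16248 genes), as did 0% of all genes tested. The smallest adjusted p among them was 0.794, and DESeq2 called 0 of the 29 and 4 of all genes. Without adjustment, 970 genes had a p under 0.05, and 1 of the 29 did, Stard4. It was lower, as were 3.28% of genes tested, and 0 of the 29 were higher, against 2.69%. Stard4 was also the only 1 of the 29 whose tamoxifen libraries all lay below the vehicle libraries, which held for 4.74% of genes, and 0 of the 29 lay wholly above, which held for 3.71%. By estimate, 10 of the 29 were higher and 19 lower, with a median log2 fold change of -0.17, against 48.3% lower and a median of 0.02 for all genes tested. The plot of fold changes shows that the 95% confidence intervals of 28 of the 29 span 0.

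**Figure D1:**
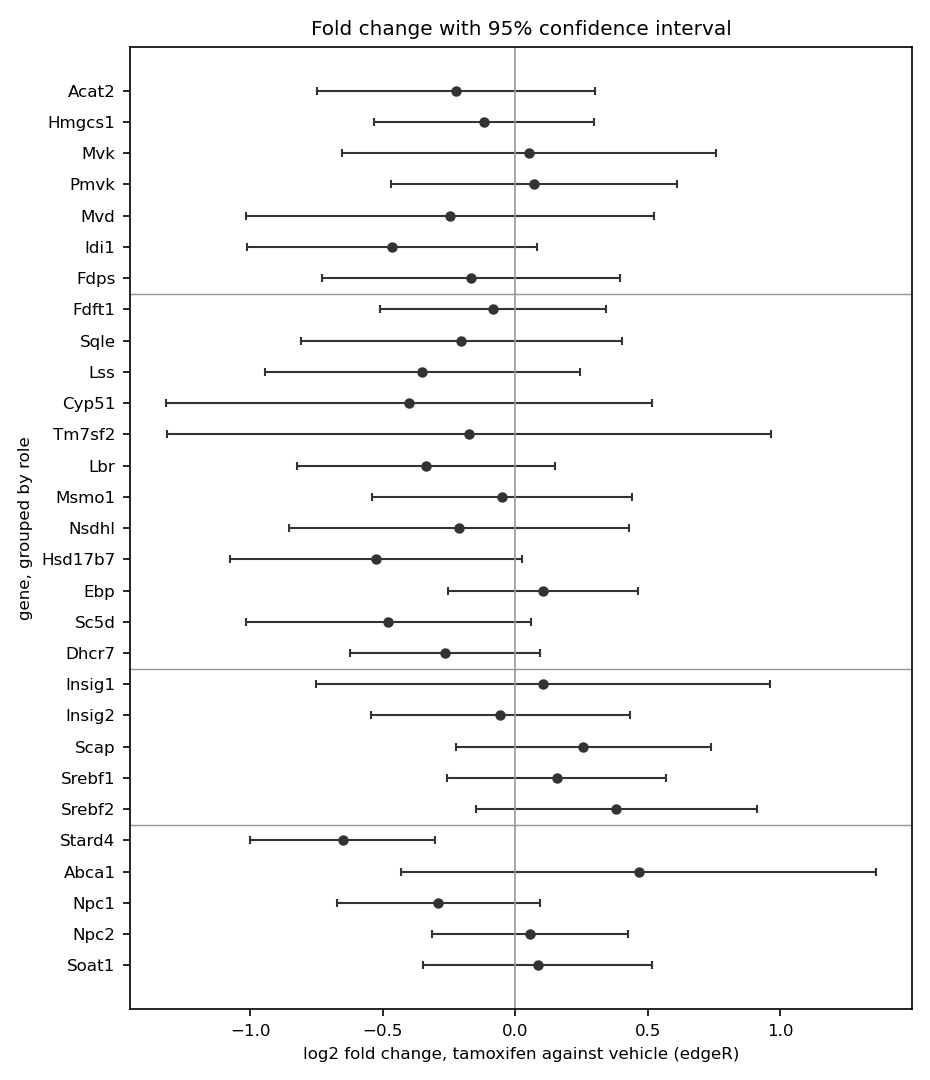
Log2 fold change of each of the 29 genes, tamoxifen against vehicle, by edgeR (x axis, log2 scale; y axis, genes grouped by role), with points for estimates and bars for 95% confidence intervals from 3 vehicle and 4 tamoxifen libraries. Stard4, at -0.65, is the gene whose interval, from -0.9997 to -0.30, leaves out 0.

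Of the 7 enzymes of the mevalonate steps, 2 had an estimate above 0 and 5 below, and 0 had an unadjusted p under 0.05. Hmgcs1, the cytosolic HMG-CoA synthase, measured 164, 178 and 151 CPM in vehicle clone4_1, clone4_2 and clone8_1 and 138, 189, 160.1 and 118 CPM in tamoxifen clone4_1, clone4_2, clone8_1 and clone8_2. The tamoxifen libraries lay on both sides of the vehicle libraries, and the log2 fold change was -0.12 ± 0.19 (SE). Idi1, which isomerises isopentenyl diphosphate, measured 22.4, 41.2 and 26.2 CPM in the vehicle libraries, in the same order, and 19.6, 25.2, 18.9 and 23.2 CPM in the tamoxifen libraries. Vehicle clone4_2 stood well above the other 6 libraries, which overlapped between the groups. The estimate for Idi1 was -0.46 ± 0.25 (SE).

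Acat2, the cytosolic acetyl-CoA acetyltransferase that makes acetoacetyl-CoA, had a mean of 160.2 CPM ± 52.3 (SD, n = 3) in the vehicle group and 137 CPM ± 20.6 (SD, n = 4) in the tamoxifen group. Acat2 is 97.7% identical to Acat3 over 1477 bp, and shares a stretch of 445 bp at 98.7% identity with Tcp1, which makes its count uncertain. Acat3 was listed at 12 counts at most and Tcp1 at a mean of 603 CPM. Mvk, which phosphorylates mevalonate, ranged from 31.7 to 75.6 CPM over the 7 libraries, with a log2 fold change of 0.05 ± 0.32 (SE). Pmvk, the next kinase, ranged from 78.6 to 150.5 CPM, with a log2 fold change of 0.07 ± 0.24 (SE). Both kinases were highest in tamoxifen clone8_1. Mvd, the decarboxylase that yields isopentenyl diphosphate, measured 40.2, 117 and 59.6 CPM in the vehicle libraries and 58.7, 56.5, 85.1 and 43.7 CPM in the tamoxifen libraries. The spread of Mvd within vehicle, from clone4_1 to clone4_2, exceeded its whole range in tamoxifen. Fdps, the farnesyl diphosphate synthase, ranged from 11.8 to 22.02 CPM, with a log2 fold change of -0.17 ± 0.25 (SE). Its level is uncertain, since the annotation places the gene Gm43738 over 7512 bp of it on the same strand, and Gm43738 was listed at 1 count at most. Fdps is also 98.9% identical to the pseudogene Gm3571 over 1062 bp, which was listed at a mean of 1.24 CPM.

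Of the 12 enzymes of the sterol steps, 11 had an estimate below 0, and 0 of the 12 had an unadjusted p under 0.05. Sqle, the squalene epoxidase, measured 149, 308 and 169.5 CPM in the vehicle libraries and 161, 216, 213 and 135 CPM in the tamoxifen libraries. Vehicle clone4_2 was again the highest, the other vehicle libraries lay among the tamoxifen libraries, and the log2 fold change was -0.20 ± 0.27 (SE). Cyp51, the lanosterol demethylase, measured 25.9, 121 and 63.2 CPM in vehicle and 42.8, 65.6, 60.7 and 42.97 CPM in tamoxifen. It had both its lowest and its highest value within vehicle and a log2 fold change of -0.40 ± 0.41 (SE). Lss, which closes the sterol rings, measured 64.3, 154 and 100.1 CPM in vehicle and 84.3, 99.02, 79.5 and 70.3 CPM in tamoxifen, with a log2 fold change of -0.35 ± 0.27 (SE). Nsdhl, a dehydrogenase of the demethylation at carbon 4, measured 31.98, 84.99 and 46.3 CPM in vehicle and 47.8, 50.4, 47.1 and 42.6 CPM in tamoxifen, with a log2 fold change of -0.21 ± 0.29 (SE). For Cyp51, Lss and Nsdhl alike, the tamoxifen libraries lay inside the range of the vehicle libraries.

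Ebp, the isomerase to which tamoxifen compounds bind, measured 208, 205 and 230.2 CPM in the vehicle libraries and 244, 202, 269 and 207 CPM in the tamoxifen libraries. The groups overlapped, and it had the narrowest range of the 29 genes, with the highest library 1.33-fold above the lowest. Its log2 fold change was 0.11 ± 0.16 (SE), with a 95% confidence interval from -0.25 to 0.46. Sc5d and Dhcr7, the desaturase and reductase that act after it, had estimates of -0.48 ± 0.24 (SE) and -0.27 ± 0.16 (SE).

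Fdft1, the squalene synthase, had means of 234 CPM ± 50.6 (SD, n = 3) in the vehicle group and 221 CPM ± 32.6 (SD, n = 4) in the tamoxifen group. Msmo1, the sterol oxidase of the demethylation at carbon 4, had means of 199 CPM ± 62.9 (SD, n = 3) and 192 CPM ± 28.4 (SD, n = 4). Hsd17b7, a keto-reductase of the same demethylation, had means of 36.1 CPM ± 12.03 (SD, n = 3) and 25.1 CPM ± 3.63 (SD, n = 4). The difference for Hsd17b7, -0.52 ± 0.25 (SE), was the largest among the 19 enzymes, and its interval, from -1.08 to 0.03, still spanned 0. Lbr and Tm7sf2 encode reductases that act on the same sterol bond, and LBR also anchors chromatin at the nuclear envelope. Lbr ranged from 127 to 273 CPM, with a log2 fold change of -0.34 ± 0.22 (SE). Tm7sf2 ranged from 2.16 to 9.47 CPM, with a log2 fold change of -0.17 ± 0.51 (SE). Tm7sf2 shares 532 bp with Vps51 on the same strand, so its low count is uncertain.

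**Figure D2:**
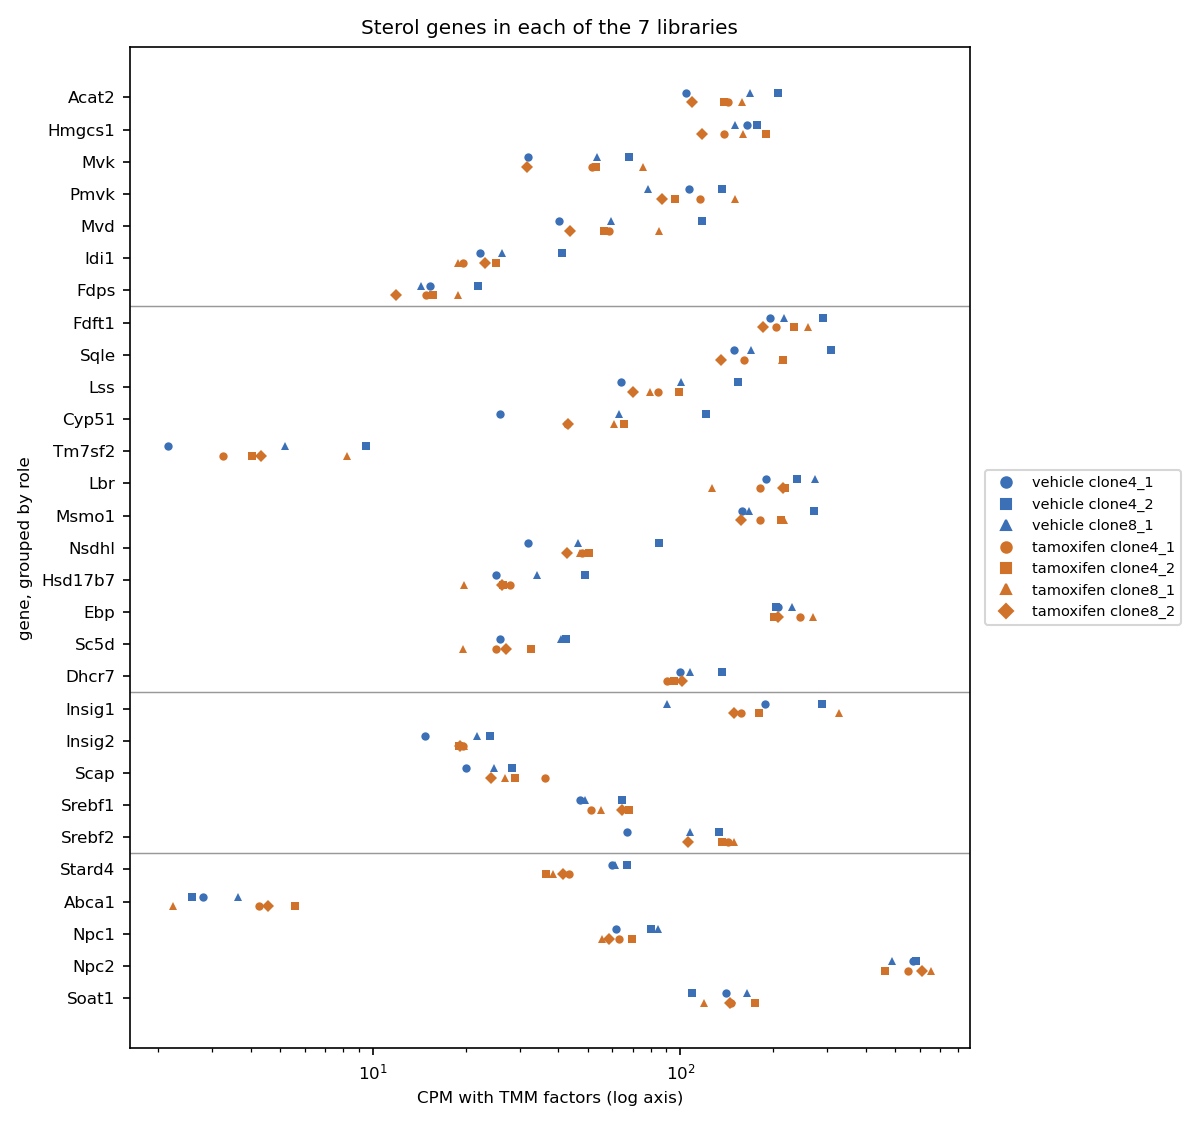
CPM of each of the 29 genes in the 7 libraries (x axis, log scale; y axis, genes grouped by role), with vehicle libraries in blue, tamoxifen libraries in orange and the marker shape giving the clone and number. For most synthesis enzymes the blue square, vehicle clone4_2, lies at the right end of the row, and for Stard4 all blue points lie to the right of all orange points.

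The sensors and regulators had 4 estimates above and 1 below 0, and 0 of the 5 had an unadjusted p under 0.05. Srebf2 measured 66.8, 134 and 107 CPM in the vehicle libraries and 142, 137, 149.5 and 106 CPM in the tamoxifen libraries. Vehicle clone4_1 alone was lower than the rest, tamoxifen clone8_2 lay just below vehicle clone8_1, and the log2 fold change was 0.38 ± 0.24 (SE), with an interval from -0.15 to 0.91. Srebf1, whose product acts mainly on fatty acid genes, measured 47.2, 64.7 and 48.9 CPM in vehicle and 51.3, 67.9, 55.2 and 64.5 CPM in tamoxifen. Its groups overlapped, with a log2 fold change of 0.16 ± 0.19 (SE). Scap measured 20.1, 28.2 and 24.7 CPM in vehicle and 36.2, 29.1, 26.9 and 24.1 CPM in tamoxifen. Only tamoxifen clone4_1 and clone4_2 exceeded all vehicle libraries for Scap, and its log2 fold change was 0.26 ± 0.22 (SE).

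Insig1, an SREBP target that retains SCAP, measured 188, 289.5 and 90.7 CPM in the vehicle libraries and 157, 181, 328 and 149.5 CPM in the tamoxifen libraries. The lowest and the highest value both came from libraries numbered clone8_1, which stood apart over all genes, and the log2 fold change of 0.10 ± 0.39 (SE) became -0.56 without those 2 libraries. Insig2, its paralog, measured 14.8, 24.01 and 21.7 CPM in vehicle and 19.6, 19.01, 19.8 and 19.3 CPM in tamoxifen. Its 4 tamoxifen libraries lay close together inside the vehicle range, with a log2 fold change of -0.06 ± 0.22 (SE).

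Stard4, a soluble carrier of cholesterol between membranes and a known SREBP2 target (ENSMUSG00000024378, chromosome 18, 33199355 to 33213862, minus strand, mm10), showed the clearest separation among the 29. It measured 59.8, 67.1 and 61.4 CPM in the vehicle libraries and 43.4, 36.5, 38.6 and 41.3 CPM in the tamoxifen libraries. All 4 tamoxifen libraries lay below all 3 vehicle libraries, as they did for 4.74% of genes tested. This held in clone 4 and in clone 8, which has 1 vehicle library. Its mean was 62.8 CPM ± 3.84 (SD, n = 3) in the vehicle group and 39.96 CPM ± 3.01 (SD, n = 4) in the tamoxifen group, a log2 fold change of -0.65 ± 0.16 (SE). The adjusted p over all genes was 0.794 by edgeR's quasi-likelihood test, and over the alternative fits it ranged from 0.146 (DESeq2) to 0.961, so the gene was not called. Its estimate stayed between -0.71 and -0.60 when each library was left out in turn, and it was -0.66 without both libraries numbered clone8_1. Stard4 was singled out by its values in these same libraries, so this range is a description and not further support. The trophectoderm marker list had estimates in the same direction: 10 of its 10 genes had lower estimates with tamoxifen, with a median of -0.33, against 48.3% of all genes tested, and Gata3, Elf3 and Krt7 had an unadjusted p under 0.05, against 3.28% of genes. Of the 9 tested naive epiblast markers 7 had higher estimates, with a median of 0.37, and of the 9 tested primitive endoderm markers 6 did, with a median of 0.49. Of these, 1 naive epiblast and 2 primitive endoderm markers were higher with an unadjusted p under 0.05, against 2.69% of genes tested. At that threshold 0 of either list were lower. The part of cell makeup in the value of Stard4 was not tested.

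The other transport and storage genes overlapped between the groups. Npc1, which exports cholesterol from lysosomes, ranged from 55.4 to 84.3 CPM, with a log2 fold change of -0.29 ± 0.17 (SE). Npc2, its soluble partner, ranged from 464 to 655 CPM, with a log2 fold change of 0.06 ± 0.17 (SE). Soat1, which esterifies cholesterol for storage, ranged from 109 to 175 CPM, with a log2 fold change of 0.09 ± 0.19 (SE). Abca1, the exporter induced by LXR receptors, was low at 2.24 to 5.56 CPM, with a log2 fold change of 0.47 ± 0.40 (SE).

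**Figure D3:**
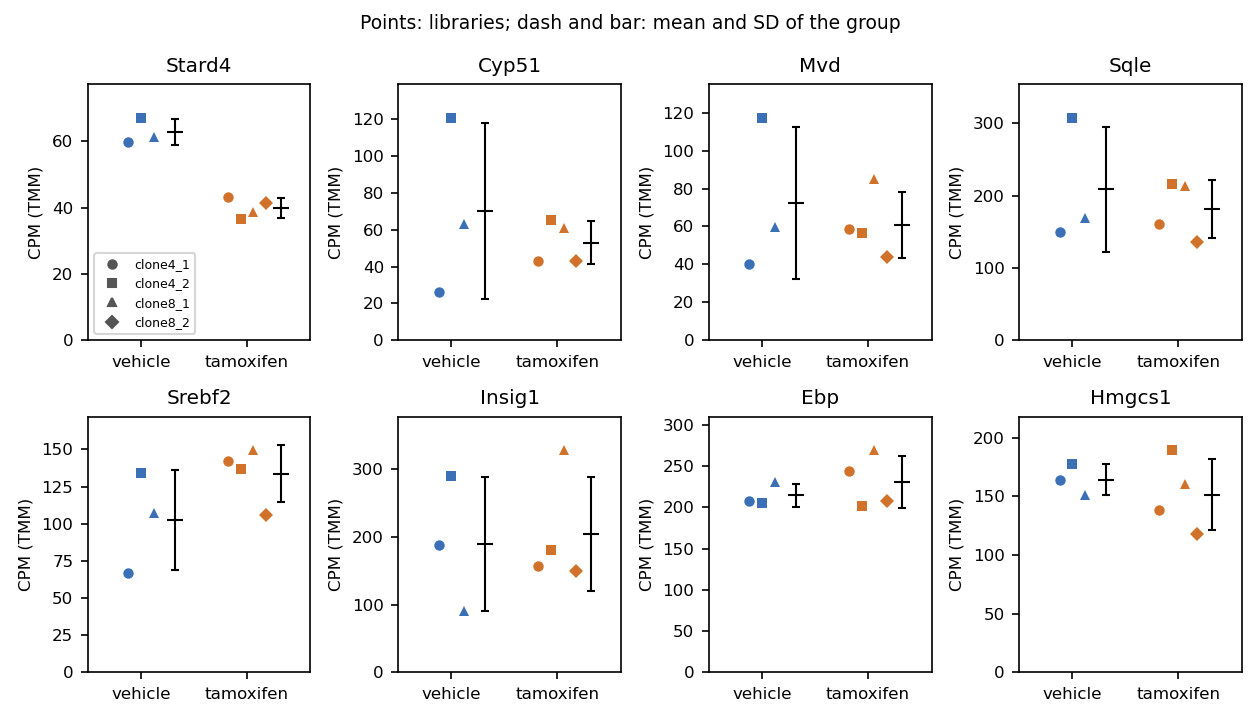
CPM (y axis, from 0) of 8 of the genes in the vehicle (blue) and tamoxifen (orange) libraries, with the marker shape giving the clone and number and the dash with its bar giving the mean and SD of 3 vehicle and 4 tamoxifen libraries. Stard4 separates the groups, while Cyp51, Mvd and Sqle spread most within vehicle and Ebp and Hmgcs1 differ little between libraries.

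Per kilobase of principal transcript, Npc2 had the highest level of the 29, with a mean of 169.96 CPM per kb ± 20.3 (SD, n = 7). Ebp followed at 128 ± 14.6, then Msmo1 at 95.4 ± 20.4 and Pmvk at 92.2 ± 21.8 CPM per kb. Npc2 differed from Ebp, and Ebp from Msmo1, by more than the SD of either. From Msmo1 down to Hmgcs1, at 46.8 CPM per kb, no neighbouring pair in the order did so. Tm7sf2, at 3.56 CPM per kb, and Abca1, at 0.357, were the lowest, each below its upper neighbour by more than the SD of either. Of the reductases that share a reaction, Lbr stood at 58.9 CPM per kb and Tm7sf2 at 3.56.

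The synthesis enzymes differed together between libraries, also between libraries of 1 group. This pattern was noticed after the values were seen, it sets 1 library against 1, and it has no test. Vehicle clone4_2 had the highest value of the 7 libraries for 14 of the 19 enzymes and for 16 of all 29 genes, against 14.7% of genes tested. Vehicle clone4_1 had the lowest value for 6 of the 19 and 10 of the 29, against 15.1% of genes. Tamoxifen clone8_2 was also the lowest for 6 of the 19 enzymes, and for 6 of the 29, against 6.75% of genes. Vehicle clone4_2 exceeded vehicle clone4_1 by 2-fold or more for 8 of the 29, against 13.1% of genes tested: 7 enzymes (Mvk, Mvd, Sqle, Lss, Cyp51, Tm7sf2 and Nsdhl) and Srebf2. The ratio was 4.66 for Cyp51 and 2.92 for Mvd, and its median was 1.84 over the 19 enzymes and 1 over all genes tested. Both libraries came from clone 4 with the same treatment, and their total counts were 40891273 for clone4_1 and 32536646 for clone4_2.

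Relative to the median library, the median enzyme deviated by -0.18 (log2) in vehicle clone4_1, by 0.58 in vehicle clone4_2 and by 0.06 in vehicle clone8_1. In tamoxifen clone4_1, clone4_2, clone8_1 and clone8_2 it deviated by -0.05, 0.03, 0.16 and -0.22. The tamoxifen libraries thus lay within the spread of the vehicle libraries except for tamoxifen clone8_2, which lay just below it. The smallest ratios between vehicle clone4_2 and clone4_1 among the enzymes were 0.986 for Ebp and 1.08 for Hmgcs1. Among the transport and storage genes the median ratio was 1.02. Over all 29 genes the median fold between the highest and lowest library was 2.00, against 2.71 for all genes tested. The 2 sets differ in level, with a median of mean CPM of 67.6 against 9.71, and the folds were not matched for level.

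**Figure D4:**
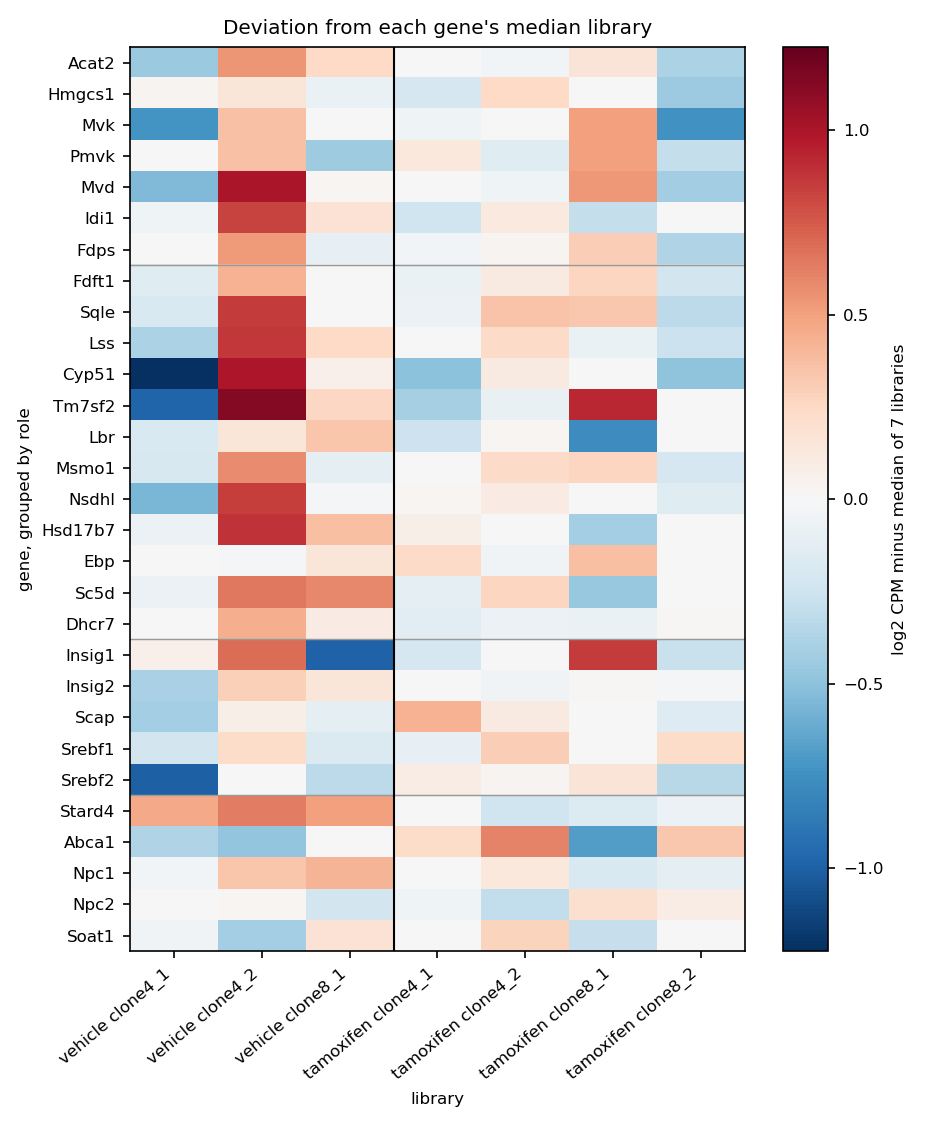
Deviation of each of the 29 genes (rows, grouped by role) in each library (columns, vehicle left of the black line) from the gene's median library, as log2 CPM on a colour scale from blue (lower) to red (higher). The column of vehicle clone4_2 is red for most synthesis enzymes and that of vehicle clone4_1 is blue for many of them.

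Leaving out single vehicle libraries moved the comparison of the groups. With all 7 libraries, 16 of the 19 enzymes had estimates below 0, with a median of -0.21. Without vehicle clone4_2, 6 of the 19 were below 0 and 13 above, with a median of 0.07, against 0.04 for all genes. Without vehicle clone4_1, 17 of the 19 were below 0, with a median of -0.47, against 0.01 for all genes. In that fit 8 of the 29 genes had a lower estimate with an unadjusted p under 0.05 (Acat2, Idi1, Lss, Cyp51, Hsd17b7, Sc5d, Stard4 and Npc1), against 3.49% of genes tested, and 0 were higher, against 5.48%. None of the 8 was called, since their adjusted p was 0.551 by edgeR's quasi-likelihood test.

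Some fatty acid synthesis genes, a list with many SREBP targets, spread in a like way. Of the 12 listed, 6 were at least 2-fold higher in vehicle clone4_2 than in vehicle clone4_1 (Acaca, Fasn, Scd1, Scd2, Fads1 and Fads2), against 13.1% of genes tested. The ratio was 1.93 for Acss2, 1.83 for Acly, 1.10 for Elovl6, 1.03 for Elovl5, 0.99 for Me1 and 0.67 for Lpin1, and the median was 1.97. Fasn, the fatty acid synthase, measured 22.9, 84.8 and 31.1 CPM in the vehicle libraries and 65.8, 58.8, 94.1 and 34.4 CPM in the tamoxifen libraries. Scd1, a desaturase, measured 189, 518 and 297 CPM in vehicle and 323, 324, 361 and 245 CPM in tamoxifen. The median deviation of the list was -0.45 in vehicle clone4_1 and 0.45 in vehicle clone4_2. Marker lists were given for the same libraries: naive epiblast stood at -0.33 and 0.06, primitive endoderm at -0.76 and -0.37, and trophectoderm at 0.27 and 0.24. The part of cell makeup in the spread of the enzymes was not tested.

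**Figure D5:**
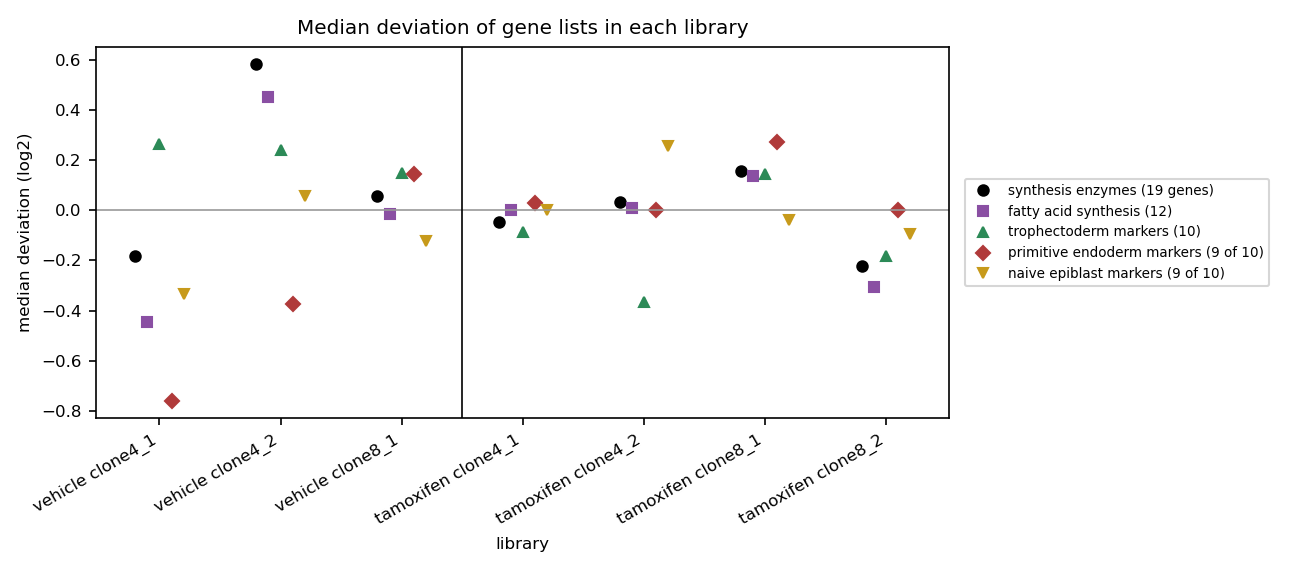
Median deviation from each gene's median library (y axis, log2) of the 19 synthesis enzymes, the fatty acid list and the lists of cell type markers in each library (x axis, vehicle left of the black line). The synthesis enzymes and the fatty acid genes are highest in vehicle clone4_2, at 0.58 and 0.45, and the trophectoderm markers are near the same height in vehicle clone4_1 and clone4_2.

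Other genes around the pathway had 0 calls between tamoxifen and vehicle. Of 12 genes of the isoprenoid branch, which draws on the same precursors, 4 had higher and 8 lower estimates, and 2 had an unadjusted p under 0.05: Pggt1b, a subunit of a protein prenyltransferase, at -0.72 ± 0.24 (SE), and Zmpste24, which trims prenylated prelamin A, at -0.51 ± 0.20. Of 8 genes that process SREBP or act in sterol-regulated turnover at the endoplasmic reticulum, 2 were higher and 6 lower by estimate, and 1 had an unadjusted p under 0.05. That gene was Mbtps2, the site 2 protease that frees SREBP from the membrane, at -0.48 ± 0.20. Pggt1b and Mbtps2 lay lower in all 4 tamoxifen libraries than in all 3 vehicle libraries, as did Fntb, a farnesyltransferase subunit, while Zmpste24 overlapped. Over all genes tested, 3.28% were lower at an unadjusted p under 0.05, and 4.74% were lower without overlap. Of 13 genes of uptake, transport and LXR signalling, 12 were tested, 5 with higher and 7 with lower estimates, 0 had an unadjusted p under 0.05, and Osbpl2 was lower without overlap. Of the 12 fatty acid genes, 5 had higher and 7 lower estimates, and 0 had an unadjusted p under 0.05.

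Clone 8 against clone 4, with condition as a further term, gave 0 calls among the 29 genes, as for 0% of all genes tested by edgeR's quasi-likelihood test. At an unadjusted p under 0.05 it gave 0 of the 29 and 509 of all genes. The interaction of clone and condition, which asks whether the difference between the groups differs between clones, gave 0 calls among the 29, against 3.16% of all genes tested, and it rests on vehicle clone8_1, the only vehicle library of clone 8. Insig1 and Npc2 had an unadjusted p under 0.05 in it, 2 of the 29 against 14.8% of genes tested. Insig1 had the larger estimate, 1.90 ± 0.57 (SE) (log2, clone 8 minus clone 4), with an adjusted p of 0.162. Its vehicle library of clone 8 lay below both tamoxifen libraries of clone 8, and its vehicle libraries of clone 4 lay above both tamoxifen libraries of clone 4. DESeq2 called Insig1 in the interaction (adjusted p = 0.00627), as did edgeR with no filter on low counts. The share of all genes called in those fits is not given here, so the calls cannot be set against it. The estimate was 2.36 without tamoxifen clone8_2 and 1.23 without tamoxifen clone8_1, each of which leaves 1 tamoxifen library of clone 8.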

How the data were processed

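RNA was sequenced from 7 pools of ICMs. The authors deposited 1 table of raw counts per Ensembl gene, with 52636 genes. Reads were aligned to mm10 with STAR 2.5.3a after bcl2fastq 2.19.1, per the submitters' processing notes. The counting program, its annotation and the use of strand are not given in the sources used here, and without molecular tags reads are not independent molecules. Groups came from the labels' treatment and clone fields. Symbols came from GENCODE M21, which matched 52489 identifiers.

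The counts were tested in R 4.3.3 with edgeR 4.0.16 (TMM factors, filterByExpr by group, glmQLFit and glmQLFTest with condition as the only term), and p-values were adjusted over all genes tested, with a threshold of 0.05. Standard errors were computed from the fold change and the F statistic. CPM values use TMM factors. Deviations are log2 CPM (prior count 2) minus the gene's median over the 7 libraries. The main fit was also run on simulated counts drawn independently for each gene and library. Such counts lack shifts shared by genes of a library, and the outcome is not used here. Alternatives were DESeq2 1.42.0, other scalings, no filter, clone as a term, a replicate block, and omission of libraries. Counts of enzymes per setting were added after the data were seen.

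The members and lists were chosen with earlier results of these data known. Every member is named, with values in every library for those with an unadjusted p under 0.05, groups that do not overlap or a call by clone or interaction, and for Ebp, Sqle, Hmgcs1, Idi1, Insig1, Insig2, Srebf1, Srebf2 and Scap. Mvd, Cyp51, Lss, Nsdhl, Fasn and Scd1 were given in full after their values were seen, as was Spry2, and Fntb and Osbpl2 were named after theirs. From each related list up to 3 genes with an unadjusted p under 0.05 are named. The count of a gene that shares sequence or overlaps another is uncertain, and 15 members overlap another annotated gene. With another annotated gene, 9 members share a stretch of 300 bp or more at 95% identity or more. The 9 are Acat2, Fdps and Tm7sf2, for which this is said above, and Fdft1, Hmgcs1, Idi1, Lbr, Npc1 and Scap. For Hmgcs1, Lbr, Npc1, Scap and Tm7sf2, the only such match is to a gene that overlaps them, so these overlaps enter both counts. Acat2, Fdft1, Fdps and Idi1 have matches to genes not annotated as overlapping them. Fdft1 also shares 774 bp at 100% identity with Ctsb, which overlaps it on the opposite strand and was listed at a mean of 400 CPM.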

Additional observations from a re-analysis of the deposited data

How the results depend on the processing

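With 3 and 4 pools a group, the 95% confidence interval of a member's log2 fold change extended by 0.53 (median) to either side. Over the members this reach ran from 0.35 to 1.14. An estimate smaller than its own reach was not told apart from 0, even without adjustment for the number of genes. A larger estimate need not be called either. The interval of Stard4, at -0.65, left out 0, and its adjusted p was 0.794 by edgeR's quasi-likelihood test. Counts of members called by condition or by clone were 0 under every alternative run. Members with an unadjusted p under 0.05 numbered 2 with no filter on low counts (Stard4 and Hsd17b7) and 2 without both libraries numbered clone8_1 (Stard4 and Insig1). They numbered 1 to 8 when each library was left out: 8 without vehicle clone4_1, and 2 without vehicle clone4_2 (Srebf2, higher, beside Stard4) or tamoxifen clone4_2 (Sc5d beside Stard4). Over all genes tested, such a p held for 6.36% with no filter and 7.25% without both libraries numbered clone8_1. It held for 8.97% without vehicle clone4_1, 6.84% without vehicle clone4_2 and 4.06% without tamoxifen clone4_2. Members whose groups did not overlap numbered 4 without both libraries numbered clone8_1, 8 in clone 4 alone, and 1 to 10 with each library left out: 10 without vehicle clone4_1, 3 without tamoxifen clone8_2, and 2 without vehicle clone4_2 or tamoxifen clone8_1. Over all genes the groups did not overlap for 23.6% without both libraries numbered clone8_1, 39.5% in clone 4 alone and 21.4% without vehicle clone4_1, against 13.8%, 27.6% and 34.5% of the members. The share over all genes was 15.8% without tamoxifen clone8_2, against 10.3% of the members. It was 17.6% without vehicle clone4_2 and 11.6% without tamoxifen clone8_1, against 6.90% of the members in each. The median log2 fold change of the members, -0.17, ranged from -0.26 to 0.10 with each library left out and was above 0 only without vehicle clone4_2. Without vehicle clone8_1 no interaction could be fitted. Members called in the interaction numbered 1 with DESeq2 and 1 with no filter, and this member was Insig1. The share of all genes called in those fits is not given here. Leaving out any other library brings the vehicle or tamoxifen group of a clone to 1 library. For these only the estimate for Insig1 is given, which ran from 1.23 to 2.36. The cause of these moves was not tested.

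Of the 29 members, 13 kept their sign under all 15 alternatives. With each library left out, log2 fold changes ran from -0.47 to 0.005 for Acat2, -0.21 to 0.31 for Mvk, -0.12 to 0.28 for Pmvk, -0.55 to 0.28 for Mvd, -0.29 to 0.048 for Fdps, -0.21 to 0.10 for Fdft1, -0.41 to 0.18 for Sqle, -0.62 to 0.016 for Lss, -0.81 to 0.25 for Cyp51, -0.57 to 0.43 for Tm7sf2, -0.20 to 0.24 for Msmo1, -0.49 to 0.26 for Nsdhl, -0.24 to 0.54 for Insig1, -0.25 to 0.085 for Insig2, -0.029 to 0.13 for Npc2 and -0.062 to 0.22 for Soat1. Without both libraries numbered clone8_1 the values were -0.14 for Mvk, -0.29 for Pmvk, -0.56 for Insig1 and -0.10 for Npc2, and in clone 4 alone -0.20 for Pmvk, -0.51 for Insig1 and -0.20 for Npc2. Same-numbered vehicle and tamoxifen libraries did not deviate together (r = 0.008, 0.021 and -0.068 across genes). These values cannot show whether same-numbered pools shared parents or a day of collection. With a replicate block the signs of 4 members turned, to 0.013 for Mvd, 0.005 for Fdft1, 0.029 for Tm7sf2 and 0.076 for Msmo1, the median was -0.02, and 0 members were called.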
